A study of Homo sapiens with 6 samples.

Results

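SREBF1 and 9 enzymes of fatty acid synthesis, desaturation and elongation were followed in DB cells, a human lymphoma line of the diffuse large B-cell type. The 10 genes were taken by name from the deposited table of 29571 genes: SREBF1, ACLY, ACACA, FASN, SCD, FADS1, FADS2, ELOVL1, ELOVL5 and ELOVL6. The groups are labelled DB_ZHX2_Mut4 and DB_ZHX2 and are abbreviated to Mut4 cells and ZHX2 cells. ZHX2 belongs to a family of DNA-binding proteins that combine zinc fingers with homeoboxes. All cells are thus of the DB line, and how the ZHX2 forms were introduced, what Mut4 changes, and whether each line is 1 clone are not stated in the sources used here. No treatment or time point is labelled. The study looked for pathways that differ between these cells, and its title names ferroptosis, a cell death driven by peroxidation of polyunsaturated lipids.

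SREBF1 encodes the SREBP-1 proteins, transcription factors held in the membrane of the endoplasmic reticulum until the escort protein SCAP carries them to the Golgi, where proteases release the active part. SREBP-1 is known chiefly for driving genes of fatty acid synthesis. In that pathway ACLY makes cytosolic acetyl-CoA from citrate, ACACA carboxylates it to malonyl-CoA, and FASN builds palmitate. ELOVL enzymes lengthen the chain, SCD makes monounsaturated fatty acids, and FADS2 and FADS1 act in turn on the polyunsaturated ones.

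Levels are given as FPKM, the authors' measure of expression scaled to gene length and library depth. Each group has 3 columns, but within a group they are 1 profile multiplied by constants, at 1.05 and 1.21 times column 1 in Mut4 cells and 1.33 and 0.897 times column 1 in ZHX2 cells. Each group was therefore counted as 1 sample, with no replicate error, no test and no p-value. The group's level is the average of its columns. Ratios are of Mut4 cells over ZHX2 cells on the log2(FPKM + 1) scale. Dropping 1 column multiplies every level of that group by the same factor. Without ZHX2 column 2 the median ratio of all genes was 0.17 instead of 0.02, so that ratios near 0 have no firm sign. In the absence of a test, 1.5-fold was used as a mark of size among 12643 genes with at least 1 FPKM in at least 3 columns, and all 10 genes were among these. The line had the markers of its labelled type: 7 of 7 B cell markers passed the filter, at mean levels from 16.8 to 249.2 FPKM. Of the other cell types, T cell markers summed to 0.928 FPKM in Mut4 against 1.08 FPKM in ZHX2 cells. Most of this was CD8A, at 0.738 and 0.887 FPKM, and CD3G was at 0. Myeloid markers summed to 3.60 and 4.34 FPKM, most of it LYZ. CD14 was at 0.634 and 0.794 FPKM, and FCGR3A and S100A8 were at 0. The adipocyte markers LEP and FABP4 were at 0 in every column, as was the hepatocyte marker TTR. ALB was at 0.106 FPKM in Mut4 against 0.111 FPKM in ZHX2 cells. The T cell marker CD2, the myeloid marker CSF1R, the adipocyte markers ADIPOQ and PLIN1 and the hepatocyte markers APOA1 and APOB were not listed.

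SREBF1 had the highest ratio of the 10 genes. It lies on the minus strand of chromosome 17, from 17810399 to 17837002 (GRCh38, GENCODE v29). Its columns were at 24.4, 25.6 and 29.4 FPKM in Mut4 cells, against 12.7, 16.9 and 11.4 FPKM in ZHX2 cells. Every Mut4 column thus lay above every ZHX2 column. With a single profile per group, such lack of overlap, here and for the genes below, only restates the size of the ratio. The means were 26.5 FPKM in Mut4 against 13.7 FPKM in ZHX2 cells, a log2 ratio of 0.91, and 85 of 12643 genes (0.672%) had a higher ratio. By level SREBF1 stood at rank 1363 of these genes in Mut4 cells and at rank 2896 in ZHX2 cells. The authors' deposited table gave it a q-value of 0.000396 and did not mark it as significant. The sources used here do not say how that value was obtained from these columns. The table sums 21 transcript records under SREBF1, so the SREBP-1a and SREBP-1c forms, which differ in their first exon, cannot be told apart.

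The promoter windows of SREBF1, the desaturases FADS2, FADS1 and SCD, and ELOVL6 are printed because these genes span the highest and lowest ratios of the set. Each runs from 250 bases before to 50 bases after a RefSeq gene start (GRCh38.p14) and is written 5′ to 3′ on the gene's own strand. Capitals mark 4 motifs searched on both strands: the core of the sterol regulatory element (TCACNCC), the NF-Y box (CCAAT), the palindromic E-box (CACGTG) and the GC box (GGGCGG).
SREBF1, chr17:17836937-17837236, minus strand: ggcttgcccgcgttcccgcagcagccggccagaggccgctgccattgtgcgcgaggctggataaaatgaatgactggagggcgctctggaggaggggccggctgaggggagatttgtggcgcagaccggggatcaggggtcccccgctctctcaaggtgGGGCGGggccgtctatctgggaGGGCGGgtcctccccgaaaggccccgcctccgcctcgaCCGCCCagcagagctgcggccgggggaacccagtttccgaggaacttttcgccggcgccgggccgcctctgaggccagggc
FADS2, chr11:61816154-61816453, plus strand: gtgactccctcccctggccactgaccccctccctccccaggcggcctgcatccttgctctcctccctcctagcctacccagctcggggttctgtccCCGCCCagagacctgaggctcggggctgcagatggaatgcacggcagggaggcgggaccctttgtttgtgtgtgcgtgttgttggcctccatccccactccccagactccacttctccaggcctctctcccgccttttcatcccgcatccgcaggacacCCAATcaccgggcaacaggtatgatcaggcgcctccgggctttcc
FADS1, chr11:61816954-61817253, minus strand: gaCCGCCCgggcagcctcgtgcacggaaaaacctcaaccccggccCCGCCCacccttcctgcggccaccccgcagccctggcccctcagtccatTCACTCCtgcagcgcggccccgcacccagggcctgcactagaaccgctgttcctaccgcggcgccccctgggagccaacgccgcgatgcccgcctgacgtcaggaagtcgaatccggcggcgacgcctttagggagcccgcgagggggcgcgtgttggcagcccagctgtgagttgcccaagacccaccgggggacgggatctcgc
SCD, chr10:100346983-100347282, plus strand: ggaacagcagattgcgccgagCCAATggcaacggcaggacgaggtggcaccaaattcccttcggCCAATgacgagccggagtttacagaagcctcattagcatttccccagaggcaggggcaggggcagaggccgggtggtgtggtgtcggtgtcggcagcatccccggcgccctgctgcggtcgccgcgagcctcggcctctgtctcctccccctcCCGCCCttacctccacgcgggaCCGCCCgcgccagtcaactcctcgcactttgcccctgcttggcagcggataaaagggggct
ELOVL6, chr4:110198566-110198865, minus strand: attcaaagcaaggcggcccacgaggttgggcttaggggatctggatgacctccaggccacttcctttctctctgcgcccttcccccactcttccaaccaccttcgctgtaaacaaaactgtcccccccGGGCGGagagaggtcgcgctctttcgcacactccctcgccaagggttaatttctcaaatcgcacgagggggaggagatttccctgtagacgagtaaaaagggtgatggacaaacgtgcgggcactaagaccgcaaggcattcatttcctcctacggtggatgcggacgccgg

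Among these windows, that of SREBF1 held 3 GC boxes, 91, 69 and 31 bases before the start, and none of the other motifs. It was the only window found for SREBF1. As the SREBP-1a and SREBP-1c forms differ in their first exon, it does not cover the starts of both. The FADS1 window held the sterol regulatory element core 156 bases before the start and 2 GC boxes. SCD had NF-Y boxes 229 and 186 bases before the start and GC boxes at 33 and 11 bases. The FADS2 window had a GC box 154 bases before the start and an NF-Y box 6 bases into the transcript, and ELOVL6 had 1 GC box. RefSeq lists a further start of FADS2, whose window held none of the motifs. Windows were found for 9 of the 10 genes, 13 windows in all, with none for FASN. The sterol regulatory element core was in the windows of 1 of the 9 genes, against 15.5% of all 35116 windows, and the NF-Y box in those of 6 (ACACA, ACLY, ELOVL1, ELOVL5, FADS2 and SCD), against 34.6%. The E-box was in that of ELOVL5 alone, against 7.26% of all windows, and the GC box in those of 8 genes, against 45.0%. Genes with several starts had more than 1 chance of a match. A match is a run of letters and not a binding site, and a window without one says nothing about the factor.

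MIR33B, a microRNA gene inside an intron of SREBF1, has a row of its own in the table. Its main mature product, miR-33b, is known to restrain cholesterol export and fatty acid oxidation, and it is printed as what the SREBF1 transcript also carries, with the seed (bases 2 to 8) in capitals.
hsa-miR-33b-5p, chr17:17813897-17813916, minus strand: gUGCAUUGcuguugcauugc
The row was at 0.902, 0.949 and 1.09 FPKM in Mut4 cells, against 0.224, 0.299 and 0.201 FPKM in ZHX2 cells. It is higher in Mut4 cells like its host gene, but it did not pass the filter on low values. Mature microRNAs lack a poly(A) tail, and the row measures reads across the hairpin, not the printed product.

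**Figure D1:**
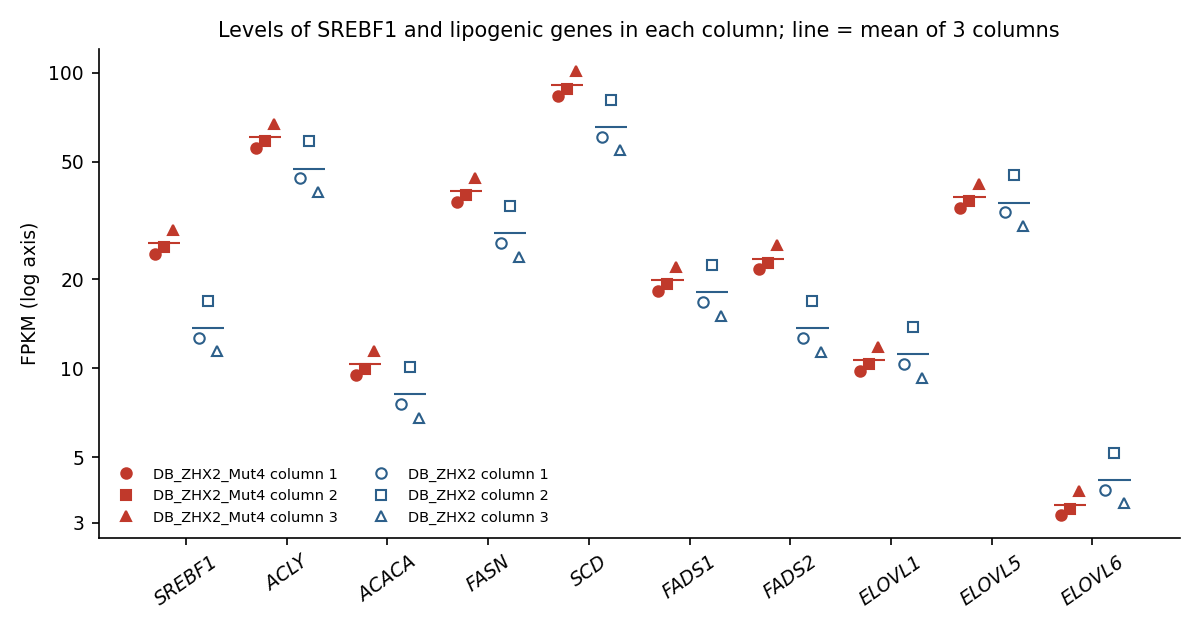
FPKM on a log axis of SREBF1 and the 9 enzymes in each of the 3 columns of Mut4 cells (filled, left) and ZHX2 cells (open, right), with lines at the mean of the 3 columns. SREBF1, FADS2, FASN and SCD are the 4 genes whose Mut4 columns all lie above all ZHX2 columns, and the same spacing of the columns in every gene shows that they are multiples of 1 profile.

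FADS2, which catalyses the first desaturation of linoleic and alpha-linolenic acid, came closest to SREBF1. It was at 21.6, 22.7 and 26.1 FPKM in Mut4 cells, against 12.7, 16.9 and 11.4 FPKM in ZHX2 cells, with no overlap between the columns. The mean was 23.5 FPKM in Mut4 against 13.6 in ZHX2 cells, a log2 ratio of 0.74, and 165 genes (1.31%) had a higher ratio. The authors' deposited table gave FADS2 a q-value of 0.00694 and, as with SREBF1, did not mark it as significant. How this value was obtained is likewise not stated. FADS1, the desaturase that acts after FADS2 on the way to arachidonic acid, was at 18.3, 19.2 and 22.1 FPKM in Mut4 cells, against 16.8, 22.4 and 15.1 FPKM in ZHX2 cells. These columns overlapped, and the log2 ratio was 0.13, with means of 19.8 and 18.1 FPKM in Mut4 and ZHX2 cells.

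The pair share a locus on chromosome 11, FADS2 on the plus strand from 61792980 to 61867354 and FADS1 on the minus strand from 61799625 to 61829318, inside the span of FADS2. By the RefSeq starts of the printed windows, FADS1 starts 599 bases downstream of the FADS2 start on the opposite strand, so transcripts from these starts overlap there. The table sums 15 transcript records under FADS2, and which start these cells use is not known, so the printed window need not be that of the main transcript. The libraries were made with a dUTP-marked second strand, per the labels, but the sources used here do not say whether counting used the strand, so some reads of one gene may have been assigned to the other. The other genes of the locus had ratios closer to 0 than FADS2. FADS3, a related desaturase 6.17 kb from FADS2, was at 13.5 FPKM in Mut4 against 14.9 FPKM in ZHX2 cells (log2 ratio −0.13). TMEM258 was at 8.34 and 8.51 FPKM (−0.03). FEN1, a flap endonuclease of DNA replication whose span meets that of FADS2, was at 58.4 and 48.5 FPKM (0.26), and the ferritin heavy chain gene FTH1, 92.4 kb away, at 154.7 and 195.2 FPKM (−0.33). MYRF and RAB3IL1 were below the filter. Around SREBF1, 5 of 6 neighbours passed the filter, with 0 at 1.5-fold and ratios from −0.26 (PEMT) to 0.15 (ATPAF2). RAI1 overlaps the end of SREBF1 on the opposite strand and was at 5.38 FPKM in Mut4 against 5.62 FPKM in ZHX2 cells (−0.05).

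SCD and FASN followed, with nearly equal ratios. SCD, the most abundant of the 10 genes, introduces the double bond that makes oleic acid. Its columns were at 83.6, 88.0 and 101 FPKM in Mut4 cells, against 60.8, 81.0 and 54.5 FPKM in ZHX2 cells. The lowest Mut4 column was just above the highest ZHX2 column, and the log2 ratio of the means, 90.8 and 65.4 FPKM in Mut4 and ZHX2 cells, was 0.47. FASN, the multifunctional synthase of palmitate, was at 36.5, 38.4 and 44.1 FPKM in Mut4 cells, against 26.5, 35.4 and 23.8 FPKM in ZHX2 cells. Here too the columns did not overlap, and the log2 ratio was 0.46, with means of 39.7 and 28.6 FPKM in Mut4 and ZHX2 cells. Without ZHX2 column 2 both ratios passed 1.5-fold, at 0.65 for SCD and 0.64 for FASN. In the authors' deposited table the q-values of SCD and FASN were 0.207 and 0.206. SCDP1, a pseudogene copy of SCD, was listed at 0.0644 FPKM in Mut4 against 0.0977 FPKM in ZHX2 cells, small beside the level of SCD.

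The enzymes that supply FASN had smaller ratios. ACLY was at 55.6, 58.5 and 67.1 FPKM in Mut4 cells, against 43.9, 58.5 and 39.4 FPKM in ZHX2 cells. ACACA, the cytosolic acetyl-CoA carboxylase, was at 9.48, 9.98 and 11.4 FPKM in Mut4 cells, against 7.57, 10.1 and 6.79 FPKM in ZHX2 cells. For both genes ZHX2 column 2 reached into the range of the Mut4 columns. The log2 ratios were 0.35 for ACLY, with means of 60.4 FPKM in Mut4 and 47.3 in ZHX2 cells, and 0.30 for ACACA, with means of 10.3 and 8.15 FPKM.

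The 3 elongases had the ratios nearest to or below 0. ELOVL5, which lengthens the polyunsaturated products of FADS2, was at 34.9, 36.7 and 42.1 FPKM in Mut4 cells, against 33.7, 44.9 and 30.2 FPKM in ZHX2 cells (log2 ratio 0.06). ELOVL1, which makes very long saturated chains, was at 9.79, 10.3 and 11.8 FPKM in Mut4 cells, against 10.3, 13.8 and 9.29 FPKM in ZHX2 cells (−0.06). ELOVL6, which lengthens palmitate to stearate, was at 3.18, 3.34 and 3.83 FPKM in Mut4 cells, against 3.89, 5.18 and 3.49 FPKM in ZHX2 cells (−0.22). The columns of all 3 overlapped. The sign for ELOVL1 was turned without ZHX2 column 2 (0.11), and that for ELOVL5 without Mut4 column 3 or ZHX2 column 3 (lowest value −0.05), whereas ELOVL6 stayed below 0 in each alternative that could be computed. ELOVL6 had the lowest level of the 10 genes and fell outside a filter at 5 FPKM.

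Counted together, 2 of 10 genes were at least 1.5-fold higher in Mut4 cells, where 2.54% of all genes were, and 0 were at least 1.5-fold lower, where 2.56% were. At a log2 ratio of 0.32, 5 were higher against 11.8% of all genes and 0 lower against 9.42%. At 2-fold none was higher or lower, against 0.443% and 0.712% of all genes. Of the 10, 8 had ratios above 0, against 53.8% of all genes, and the median log2 ratio was 0.33, against 0.02 over all genes. The Mut4 columns lay wholly above the ZHX2 columns for 4 genes, against 11.0% of all genes, and wholly below for 0, against 8.86%. With columns that are multiples of 1 profile, lack of overlap is a further cut on the same ratio and adds nothing to it. Without ZHX2 column 2, the count at 1.5-fold was 4, with 5.69% of all genes. The 10 genes were chosen with earlier results of these data known, so these counts describe them and test nothing. Measured from the median of all genes in the same setting, SREBF1 lay between 0.87 and 0.93, FADS2 between 0.71 and 0.76, and ELOVL6 between −0.31 and −0.22 over the settings tried.

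**Figure D2:**
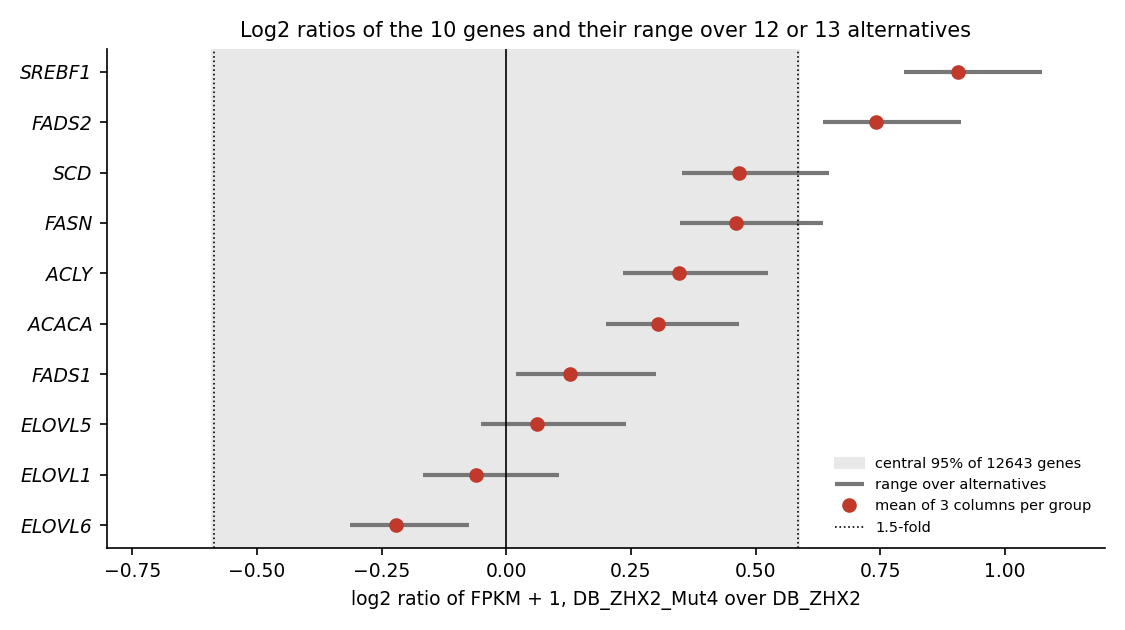
Log2 ratio of FPKM + 1, Mut4 over ZHX2 cells, for each gene (points), its range over the alternatives (bars) and the central 95% of all 12643 genes (grey), with dotted lines at 1.5-fold. SREBF1 and FADS2 lie beyond the grey band at 0.91 and 0.74, and ELOVL6 is lowest at −0.22.

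Ratios between genes within 1 profile do not depend on the constants between columns, and FPKM, being per length, allows them. SREBF1 stood at 1.13 times FADS2 in Mut4 cells and at 1.003 times FADS2 in ZHX2 cells, so that this pair kept nearly the same proportion. FASN and SCD did so more closely, with FASN at 0.437 times SCD in both profiles, as did ACLY and ACACA, with ACLY at 5.87 and 5.80 times ACACA in Mut4 and ZHX2 cells. The desaturases of polyunsaturated fatty acids did not: FADS1 was at 0.845 times FADS2 in Mut4 cells and at 1.33 times FADS2 in ZHX2 cells. The widest shift among the 45 pairs was that of SREBF1 over ELOVL6, at 7.67 in Mut4 cells and 3.27 in ZHX2 cells. FADS2 over ELOVL6 followed, at 6.80 and 3.26. Against its relative SREBF2, which drives mainly cholesterol synthesis, SREBF1 was at 0.447 times SREBF2 in Mut4 cells and at 0.237 times SREBF2 in ZHX2 cells.

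The order of levels differed between the profiles at 2 places. SCD, ACLY and then FASN led in Mut4 cells, with FASN at 1.05 times ELOVL5, whereas in ZHX2 cells ELOVL5 stood above FASN at 36.3 against 28.6 FPKM. In Mut4 cells SREBF1 was followed by FADS2 and FADS1, and in ZHX2 cells FADS1 stood above SREBF1 and FADS2. ELOVL1, ACACA and ELOVL6 came last, in this order, in both. No replicate spread is available against which neighbours in this order could be told apart.

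**Figure D3:**
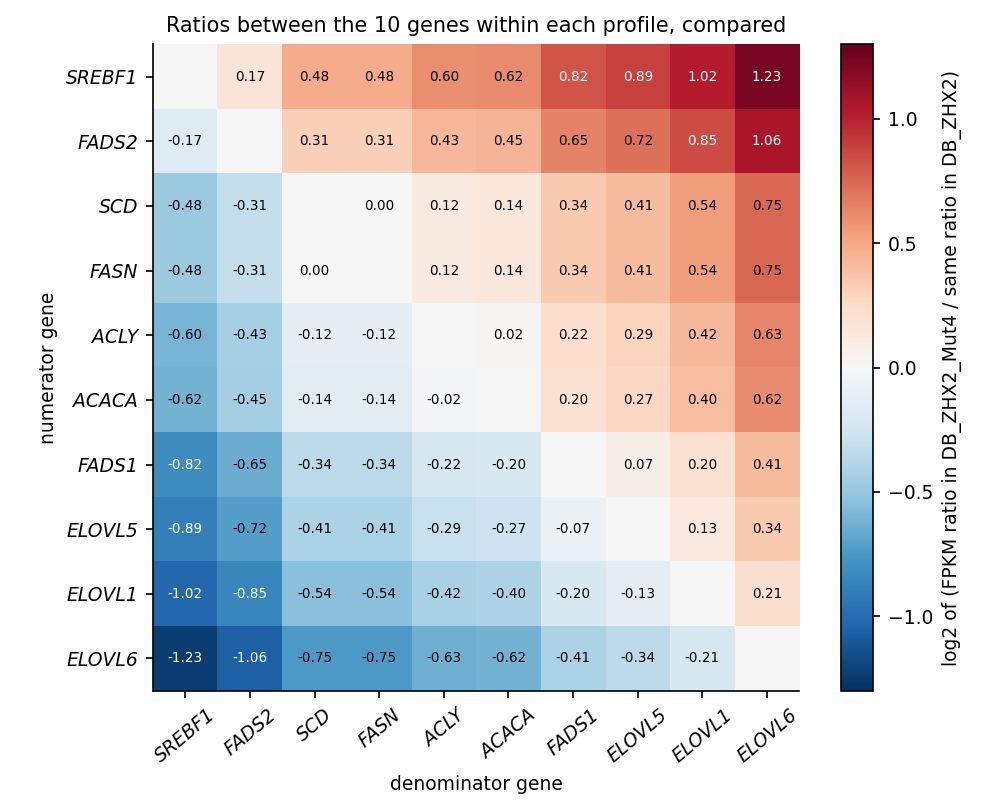
Each cell gives the log2 of the FPKM ratio of the row gene over the column gene in Mut4 cells divided by the same ratio in ZHX2 cells, with no pseudocount. Cells near 0 mark pairs that kept their proportion, such as FASN and SCD, and the top right corner holds the widest shift, SREBF1 over ELOVL6, at 1.23.

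The genes whose levels most resembled those of SREBF1 were PDXP, LRRC32, MRPS18A and FADS2. Likeness was the Euclidean distance in log2(FPKM + 1) over the 2 profiles, from 0.07 for PDXP to 0.17 for FADS2. With 2 values a gene, this says only that both levels were close, at 27.2 and 14.3 FPKM for PDXP in Mut4 and ZHX2 cells.

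For the lists below, the shares of all genes were 53.8% above 0, 2.54% at least 1.5-fold higher and 2.56% at least 1.5-fold lower. The machinery that controls SREBP-1 after translation lay mostly near 0. Of 12 genes of SREBP escort, retention and cleavage, all passed the filter, 0 were 1.5-fold apart, 6 were above 0 and the median was 0.0012. The list and its median also include SREBF2, whose protein is handled by this machinery and is not part of it. It was at 59.2 FPKM in Mut4 against 57.6 FPKM in ZHX2 cells (0.04). INSIG1, which retains SCAP in the endoplasmic reticulum and is itself an SREBP target, had the highest ratio (0.54), at 61.2 FPKM in Mut4 against 41.8 FPKM in ZHX2 cells, and passed 1.5-fold without Mut4 column 1 or ZHX2 column 2. SPRING1, a factor that supports SREBP cleavage, had the lowest (−0.25), at 7.39 and 8.99 FPKM. Transcriptional regulators of SREBF1 and of lipogenesis gave a median of −0.01 over the 16 of 19 that passed the filter, with 0 at 1.5-fold. The NF-Y subunits NFYC and NFYA lay farthest from 0 in that list, in opposite directions (−0.33 and 0.31). NFYC was at 11.0 FPKM in Mut4 against 14.1 FPKM in ZHX2 cells, and NFYA at 5.41 and 4.16 FPKM. The liver X receptor NR1H3 and the carbohydrate response factor MLXIPL are known to drive SREBF1 or lipogenic genes in liver. Both were below the filter at no more than 0.744 FPKM. Their relatives NR1H2 and MLXIP passed it. NR1H2, the other liver X receptor, was at 13.26 FPKM in Mut4 against 11.99 FPKM in ZHX2 cells (0.13). MLXIP was at 3.32 FPKM in Mut4 against 3.18 FPKM in ZHX2 cells (0.05).

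Genes of kinase signalling to lipogenesis held 2 of the largest differences of the lists. Of 17 measured, 0 were 1.5-fold higher in Mut4 cells, against 2.54% of all genes, and 2 were lower, against 2.56%. The median was 0.03 (without ZHX2 column 2, 1 was higher). TRIB3, a pseudokinase that binds AKT and in mice has been linked to breakdown of acetyl-CoA carboxylase, was at 35.7, 37.5 and 43.1 FPKM in Mut4 cells, against 85.3, 113.7 and 76.5 FPKM in ZHX2 cells (log2 ratio −1.22). LPIN1, a phosphatidate phosphatase that in mice lowers nuclear SREBP-1 activity, was at 10.8, 11.4 and 13.1 FPKM in Mut4 cells, against 22.8, 30.3 and 20.4 FPKM in ZHX2 cells (log2 ratio −0.9998). For both genes all Mut4 columns lay below all ZHX2 columns, opposite in direction to SREBF1. LPIN1 was also the only one of 14 measured genes of triacylglycerol synthesis and lipid droplets at 1.5-fold, and the median of that list was −0.02.

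Among genes of acetyl-CoA, citrate and NADPH supply, 14 of 16 measured had ratios above 0, against 53.8% of all genes. The median was 0.17, against 0.02 over all genes. At 1.5-fold 2 were higher in Mut4 cells: the mitochondrial isocitrate dehydrogenase IDH2 (0.69), at 59.4 FPKM in Mut4 against 36.5 FPKM in ZHX2 cells, and the dicarboxylate carrier SLC25A10 (0.60), at 6.33 and 3.82 FPKM. SLC25A10 was under 1.5-fold without Mut4 column 3 or ZHX2 column 1, with the first columns alone and after centring on the median of all genes, and neither of the pair reached it without ZHX2 column 3. IDH1, the cytosolic counterpart and a source of NADPH, was lower, at 12.9 FPKM in Mut4 against 42.4 FPKM in ZHX2 cells (−1.64). The mitochondrial pathway of fatty acid synthesis, which serves lipoic acid formation, had ratios above 0 for all 7 of its measured genes, against 53.8% of all genes, and a median of 0.30. None reached 1.5-fold, and HSD17B8 and ACSF3 were highest at 0.37 and 0.36. In the cytosolic pathway outside the 10 genes, 5 of 6 were measured, with a median of 0.12. HLCS, which attaches biotin to the carboxylases, was at 3.02 FPKM in Mut4 against 2.16 FPKM in ZHX2 cells (0.35), and AASDHPPT, which attaches the phosphopantetheine arm to FASN, was lower, at 16.3 FPKM in Mut4 against 19.7 FPKM in ZHX2 cells (−0.26). ACACB, the mitochondrial form of acetyl-CoA carboxylase, was at 1.64 FPKM in Mut4 against 1.24 FPKM in ZHX2 cells (0.24). The list and its median also include PPT1, a thioesterase of palmitoylated proteins and not an enzyme of this pathway. It was at 39.8 FPKM in Mut4 against 44.8 FPKM in ZHX2 cells (−0.17).

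Relatives of the elongases and desaturases did not follow FADS2 as a group. Of 8 measured genes of other elongases and of the elongation cycle, 0 were at 1.5-fold and the median was 0.04. ELOVL4, of very long chains, was at 1.89 FPKM in Mut4 against 3.12 FPKM in ZHX2 cells (−0.51), past 1.5-fold without ZHX2 column 3, at a pseudocount of 0.1 and by the deposited log2 value, and ELOVL7 at 1.98 and 1.33 FPKM (0.35). Of 8 other desaturases and electron donors, 1 was 1.5-fold higher, against 2.54% of all genes, and the median was −0.05. It was the cytochrome b5 reductase CYB5R2 (0.62), at 7.81 FPKM in Mut4 against 4.73 FPKM in ZHX2 cells. CYB5R2 was under 1.5-fold without Mut4 column 3, ZHX2 column 1 or ZHX2 column 3. SCD5, the second stearoyl-CoA desaturase, was at 1.67 and 1.88 FPKM. Genes of the opposite pathway, mitochondrial fatty acid oxidation, had ratios above 0 for 15 of 18, against 53.8% of all genes, and a median of 0.19. There 0 were at 1.5-fold and ECHS1 was highest (0.57), at 79.9 FPKM in Mut4 against 53.4 FPKM in ZHX2 cells. The thiolase ACAA2 came next (0.43), at 20.1 FPKM in Mut4 against 14.7 FPKM in ZHX2 cells. The count at 1.5-fold was 1 without Mut4 column 1 or 2 and 2 without ZHX2 column 2. CPT1A, which admits fatty acids to mitochondria, was at 18.6 and 17.5 FPKM (0.08). Fatty acid uptake and binding gave a median of 0.10 over 9 genes with 0 at 1.5-fold. There SLC27A2, a fatty acid transporter, lay lowest (−0.39) and DBI, an acyl-CoA binding protein, highest (0.39). Beside these, the 7 B cell markers had a median of 0.23, so that a list outside lipid metabolism lay above the 0.02 of all genes as well.

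**Figure D4:**
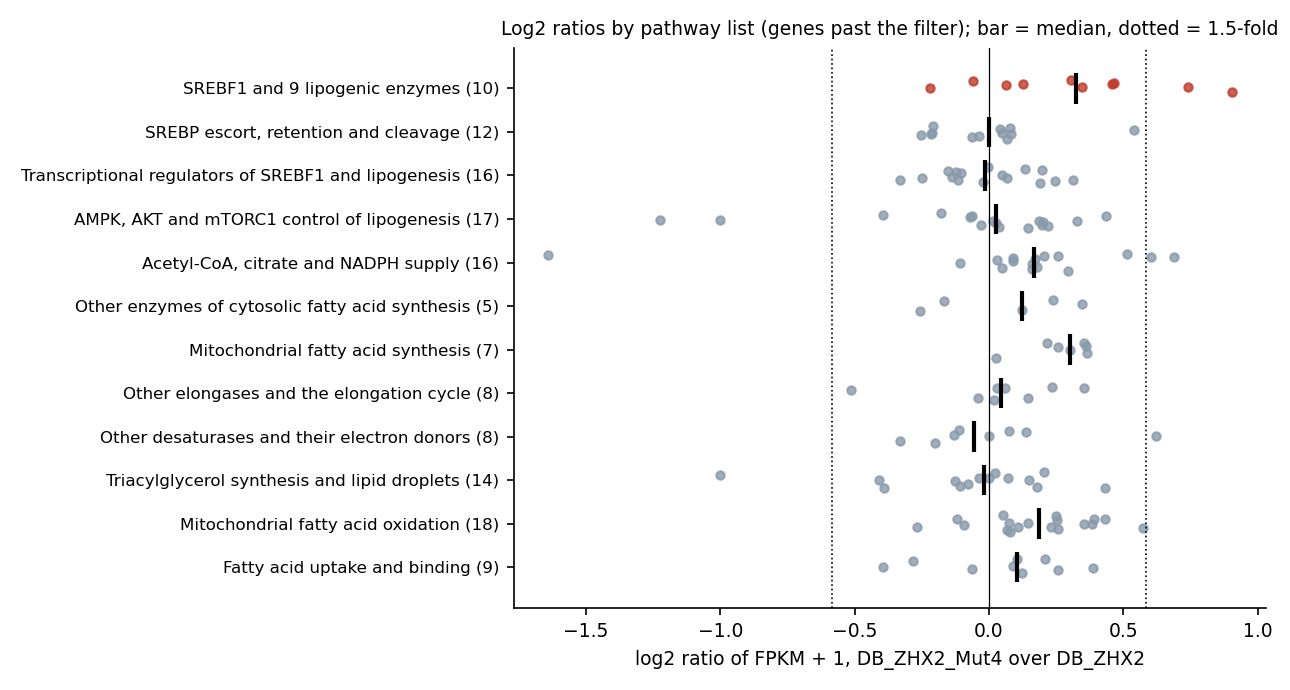
Log2 ratios of FPKM + 1, Mut4 over ZHX2 cells, of each gene past the filter (points, number measured in brackets) and the median of each list (bars), with dotted lines at 1.5-fold. The 10 genes (red) have a median of 0.33, mitochondrial fatty acid synthesis one of 0.30, and IDH1, TRIB3 and LPIN1 are the points farthest to the left.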

How the data were processed

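RNA of DB cells was measured by poly(A) RNA-seq in 3 libraries labelled DB_ZHX2_Mut4 and 3 labelled DB_ZHX2. Per the submitters' processing notes the tools were edgeR, StringTie, HISAT2 and fastp, on build GRCh38. Their versions, roles and settings are not given in the sources used here. The authors deposited FPKM per gene and library, per the file headers, with a linear ratio, its log2 value, and a p-value and q-value per gene. The deposited ratio was checked to be DB_ZHX2 over DB_ZHX2_Mut4 in the first columns, the reverse of the ratios printed here.

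The table holds no counts. Low FPKM values multiplied by transcript length piled up at steps that scaled with the constants between columns, so no depth or counting interval was derived. Columns were constant multiples within a tolerance of 1e-06 at 23808 of 23808 genes above 0 in DB_ZHX2_Mut4 and 23368 of 23370 in DB_ZHX2. The planned limma fit therefore had no independent replicates and was not run. ATG5, ACSL1 and SLC7A11, whose FPKM and deposited log2 values disagreed, were left out.

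The 10 genes and the pathway lists were chosen with earlier results of these data known. Named from each list was every measured gene at least 1.5-fold apart, or the 2 farthest from 0, with others allowed from lists of at most 8 genes. A few relatives of the 10 genes and regulators (among them SREBF2, NR1H3, MLXIPL, SCD5, FADS3 and CPT1A) were also named, chosen after their values were seen. Sequences are from RefSeq (GRCh38.p14) and gene spans from GENCODE v29. The ratios and counts were run on simulated profiles with set changes and no noise, which checks the arithmetic only and not the error of a ratio. Alternatives were a pseudocount of 0.1, no filter, a filter at 5 FPKM, quantile normalization, centring on the median, the deposited log2 values, each column left out, thresholds at a log2 ratio of 0.32 and at 2-fold, and, added after seeing the data, the first columns alone. Calculations used Python 3.11.15, numpy 2.4.6 and pandas 2.3.3.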

Additional observations from a re-analysis of the deposited data

How the results depend on the processing

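No paired analysis was possible because each group's columns are multiples of a single profile and no test was made. Over 13 alternatives SREBF1 stayed between 0.80 and 1.07 and FADS2 between 0.63 and 0.91, both above 1.5-fold. These are not independent checks of the difference. Filters leave a gene's ratio unchanged, and choosing columns or centring shifts all genes nearly alike. The count of genes at least 1.5-fold higher was 2 in each alternative of filter, pseudocount and scaling, 2 to 4 when a column was left out, 5 with the threshold at a log2 ratio of 0.32 and 0 at 2-fold. The count of lower genes was 0 throughout, and 7 to 9 genes were above 0. The median of the genes ranged from 0.22 to 0.50 when a column was left out, because that rescales all genes: their median ranged from −0.07 to 0.17. Of 762 further comparisons of single genes and lists, 717 kept their sign and side of 1.5-fold (genes) or stayed within 0.1 (medians) or 1.5 times (counts), 43 did not (for single genes only sign changes, those of ELOVL1 and ELOVL5 given above), and 2 (FASN and SCD without DB_ZHX2 column 2) passed 1.5-fold. Many of these comparisons could hardly move, as a filter leaves a single gene's ratio unchanged and some lists, such as the adipocyte one, had no gene past the filter. Depth is not known, so low levels such as those of ELOVL6 carry an unknown counting error.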

Other observations

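A few genes of the pathway were below the filter on low values and belong in no count above; they are named after their values were seen. OLAH, a thioesterase that ends fatty acid synthesis at medium chain lengths in mammary gland, was at 0.0516 FPKM in Mut4 against 0.661 FPKM in ZHX2 cells. ELOVL3, an elongase of saturated very long chains, was at 0.418 FPKM in Mut4 against 0.0783 FPKM in ZHX2 cells. THRSP, a lipogenic factor of liver and fat, was at 0.131 FPKM in Mut4 cells and listed at 0 in ZHX2 cells. At these levels the number of reads behind a value is not known.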
